A study of Mus musculus with 4 samples.

Results

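The apelin and Cxcl12 genes described here are 6 genes of 2 signalling axes, Apln, Apela, Aplnr, Cxcl12, Cxcr4 and Ackr3. They were picked by gene symbol from the 55405 genes of the matrices, with earlier results of these data known. In the first axis, the secreted peptides apelin (Apln) and Apela (also called Elabela or Toddler) activate the receptor Aplnr, which couples to inhibitory G proteins. In the second, the chemokine Cxcl12 signals through Cxcr4 and is also bound and cleared by the atypical receptor Ackr3, which passes signals through arrestins rather than G proteins. Aplnr is known from veins and sprouting endothelium, Apln from tip cells, and Cxcl12 with Cxcr4 from the growth and arterial joining of coronary vessels.

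Cells were dissociated from heart ventricles of mouse embryos at E12.5, and 3′ tags were counted by 10x Genomics droplet sequencing. The 2 Gata4_KO libraries were Gata4fl/fl, and the 2 Gata4_het libraries were Gata4fl/+, with 1 floxed allele beside a normal one. Both groups carried Rosa26mTmG/+, a reporter that changes from a red to a green membrane protein after recombination. Both also carried Cdh5(Pac)-CreER, an inducible Cre driven from an endothelial gene, and both received tamoxifen at E9.5, so the controls share the Cre, the reporter and the drug. The driver is a gene of endothelium, not of cardiomyocytes or epicardial cells. Whether 1 embryo or several went into a library is not given, and p-values measure only the spread between these libraries. In every pair of values below, the first is replicate 1 and the second replicate 2. Some genes below are described as having both Gata4_KO libraries above or below both Gata4_het libraries. The share of all genes that do so is not given, so these orders are a description only.

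The libraries held 137890971 to 190207638 unique molecular identifiers (UMIs, 1 per captured transcript), and 6769 to 22204 cells per library were kept. Library Gata4_het 1 differed from the other libraries. No barcode of it held fewer than 1841 UMIs, where the others began at 500 to 521, and its median kept cell held 4171.5 UMIs, where theirs held 7087 to 14030.5. Its unnamed clusters, together with cells removed as doublets, held 256 of its 568 Apln UMIs and 2053 of its 5495 Cxcl12 UMIs. They also held 2128 of its 2941 Apela UMIs. Any pair of libraries shared 23 to 103 barcodes. Clusters were named by fixed markers, without the 6 genes among the variable genes used. Vascular-like endothelial cells, led by Fabp4, Kcne3 and Esm1, numbered 159 and 76 in Gata4_KO libraries, against 248 and 145 in Gata4_het libraries. Their endothelial markers took 0.559% and 0.537% of UMIs in Gata4_KO libraries, against 0.484% and 0.468% in Gata4_het libraries, and none of the 12 was at 0. In these cells green reporter RNA reached 3122 and 3492 CPM (UMIs of the gene for 1000000 UMIs of the class) in Gata4_KO libraries, against 2291 and 4482 CPM in Gata4_het libraries. Gata4 itself averaged higher in Gata4_KO endothelial-like cells, at 215 and 188 CPM, against 159 and 124 CPM in Gata4_het libraries (log2 difference 0.52, SE 0.15, adjusted p = 1.0, edgeR). A 3′ tag may lie outside the floxed part, so this value does not check the deletion. Sequences named FloxGata4 and FloxGata4_ctrl are also among the features. What they hold is not given, and they were not used to check the deletion. Xist, of female cells, was counted in vascular-like cells of all 4 libraries, and the Y-linked Ddx3y in all but Gata4_KO 2.

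By GENCODE M21 on GRCm38, Apln lies at chrX:48025146-48034853 on the minus strand, Aplnr at chr2:85136225-85139923 on the plus strand, and Apela at chr8:65028417-65037336 on the minus strand. The Apela gene overlaps the non-coding gene Gm45886 on the same strand, so the counting may divide their reads. Cxcl12 lies at chr6:117168535-117181367 and Ackr3 at chr1:90203980-90216751, both on the plus strand, and Cxcr4 at chr1:128588199-128592293 on the minus strand. RefSeq promoter sequences for GRCm38.p6 were matched for 5 of the 6 genes. Those of Apln, Cxcl12 and Cxcr4 are shown because the differences between the groups described below concern these genes. Each runs 5′ to 3′ over the 250 bases before the start, on the strand of its gene. The motifs searched on both strands were AGATAA and TGATAA, forms of the site GATA factors bind, and ACGTG and GCGTG, the core of hypoxia response elements. Matches are in capitals.
Apln, chrX:48034854-48035103: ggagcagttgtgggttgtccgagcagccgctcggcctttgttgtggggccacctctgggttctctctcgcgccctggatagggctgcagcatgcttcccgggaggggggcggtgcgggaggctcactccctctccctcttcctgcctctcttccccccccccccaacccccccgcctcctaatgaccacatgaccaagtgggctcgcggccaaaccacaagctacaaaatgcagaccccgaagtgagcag
Cxcl12, chr6:117168285-117168534: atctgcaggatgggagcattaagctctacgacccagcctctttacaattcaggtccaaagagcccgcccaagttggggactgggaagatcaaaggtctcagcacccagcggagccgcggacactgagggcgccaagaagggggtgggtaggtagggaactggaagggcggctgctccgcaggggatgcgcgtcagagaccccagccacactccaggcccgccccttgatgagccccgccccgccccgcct
Cxcr4, chr1:128592300-128592549: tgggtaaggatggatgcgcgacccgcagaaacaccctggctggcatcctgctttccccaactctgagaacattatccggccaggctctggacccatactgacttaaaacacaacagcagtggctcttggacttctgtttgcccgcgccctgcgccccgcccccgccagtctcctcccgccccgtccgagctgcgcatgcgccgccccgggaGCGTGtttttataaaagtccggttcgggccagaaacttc
Neither AGATAA nor TGATAA was in any of the 5 windows, and 16.6% of all 32851 RefSeq promoter windows of that length held at least 1. GCGTG stood in the windows of Cxcr4, 39 bases before the start, and of Ackr3, 120 bases before it, and 38.6% of windows held ACGTG or GCGTG. A match describes letters only.

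**Figure D1:**
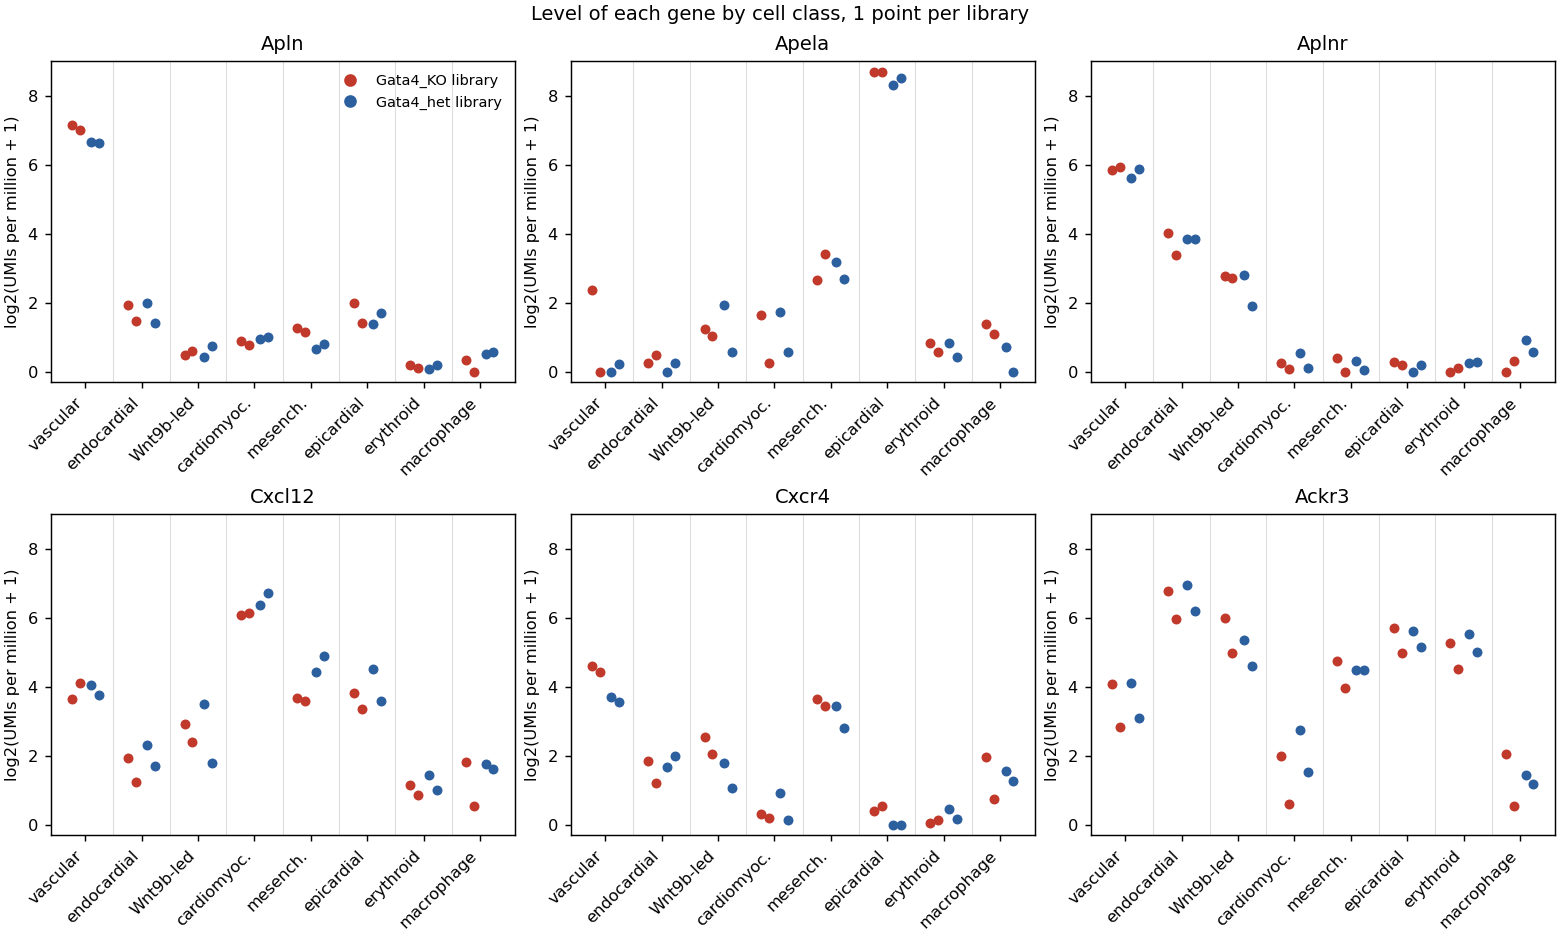
Levels of the 6 genes as log2(CPM + 1) in each cell class, with 1 point per library and Gata4_KO points left of Gata4_het points. Apln is highest in vascular-like cells, Apela in epicardial-like cells, Cxcl12 in cardiomyocyte-like cells and Ackr3 in endocardial-like cells.

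Apln, the apelin precursor, was a gene of vascular-like cells, which held 70.6% of all its UMIs. Its level there was 141 and 127 CPM in Gata4_KO libraries, against 99.0 and 98.0 CPM in Gata4_het libraries, from 584, 397, 248 and 605 UMIs in that order. The Gata4_KO libraries were both above both Gata4_het libraries. The log2 difference was 0.42 (SE 0.16, unadjusted p = 0.0273, adjusted p = 1.0 over 11492 genes, edgeR quasi-likelihood test), which did not pass the threshold of 0.05. Without library Gata4_het 1 it was 0.42 (SE 0.29), and without Gata4_het 2 it was 0.44. Cells with at least 3000 UMIs were thinned to that depth, and cells with fewer were left out of all thinned shares. Of thinned vascular-like cells, 22.5% and 20.3% held an Apln UMI in Gata4_KO libraries, against 19.9% and 20.1% in Gata4_het libraries. In unthinned cells the shares were 55.3% and 56.6% in Gata4_KO libraries, against 29.8% and 59.3% in Gata4_het libraries, at median depths of 15016 and 28654 UMIs against 4912.5 and 28282 UMIs. Macrophage-like cells, which should lack Apln, held a UMI in 0.61% and 0% of Gata4_KO cells, against 0.913% and 0.485% of Gata4_het cells, at median depths of 21133.5 and 45759 UMIs against 16414 and 28998 UMIs. Outside these cells the next highest class was a cluster led by Tcf15, with 23.8 and 20.7 CPM in Gata4_KO libraries, against 7.58 and 20.1 CPM in Gata4_het libraries. Endocardial-like cells reached 2.96 CPM at most and epicardial-like cells 2.96 CPM at most, and these classes overlapped. Apln is X-linked. Xist in vascular-like cells had 629 and 889 CPM in Gata4_KO libraries, against 750 and 210 CPM in Gata4_het libraries, and the part of embryo sex in the Apln values was not tested.

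Apela, the second apelin receptor ligand, was expressed in epicardial-like cells, the covering layer of the heart, where 74.2% of its UMIs over all libraries lay. In Gata4_het 1, 2128 of 2941 Apela UMIs lay outside the named classes. There were 283 of 4305 and 131 of 3209 in Gata4_KO libraries, and 212 of 3057 in Gata4_het 2. Epicardial-like cells numbered 328 and 141 in Gata4_KO libraries, against 79 and 189 in Gata4_het libraries. Apela had 409.7 and 412 CPM in Gata4_KO libraries, against 315 and 364 CPM in Gata4_het libraries. Both Gata4_KO values lay above both Gata4_het values, and the log2 difference was 0.28 (SE 0.21, unadjusted p = 0.229, adjusted p = 1.0, edgeR). Thinned cells with a UMI made up 66.0% and 66.0% of Gata4_KO cells, against 56.0% and 60.5% of Gata4_het cells. In thinned macrophage-like cells the share was 0% and 1.11% in Gata4_KO libraries, against 0% in both Gata4_het libraries. Mesenchymal-like cells held far less, 5.25 and 9.63 CPM in Gata4_KO libraries against 8.13 and 5.42 CPM in Gata4_het libraries. Those values are below the 15.1 and 13.7 CPM in Gata4_KO libraries and 11.8 and 10.6 CPM in Gata4_het libraries that epicardial markers in the same cells would give at the epicardial ratio, and the part of carried RNA was not tested further. An unnamed cluster led by Krt7 and Upk3b, genes seen in mesothelium, held 747 of its 799 cells in Gata4_het 1. It had 113 and 377 CPM of Apela in Gata4_KO libraries, against 252 and 306 CPM in Gata4_het libraries. Its cells numbered only 20 and 10 in Gata4_KO libraries and 22 in Gata4_het 2, at a median of 4194 UMIs over the cluster. In every other named class tested, Apela was at 4.12 CPM or less.

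Aplnr, the receptor of both peptides, was measured mainly in vascular-like cells, with 48.5% of its UMIs, and in endocardial-like cells, with 29.3%. In vascular-like cells Aplnr had 56.2 and 60.6 CPM in Gata4_KO libraries, against 47.5 and 57.3 CPM in Gata4_het libraries. The Gata4_het 2 library lay between the Gata4_KO libraries, and the log2 difference was 0.12 (SE 0.19, unadjusted p = 0.535, adjusted p = 1.0). Endocardial-like cells had 15.1 and 9.38 CPM in Gata4_KO libraries, against 13.2 and 13.3 CPM in Gata4_het libraries (log2 difference -0.12, SE 0.25, adjusted p = 1.0). A cluster led by Wnt9b and Wnt4 had 5.83 and 5.55 CPM in Gata4_KO libraries, against 5.96 and 2.77 CPM in Gata4_het libraries. The ranges of the vascular-like, endocardial-like and Wnt9b-led cells did not overlap, in that order from high to low. In cardiomyocyte-like, mesenchymal-like and epicardial-like cells Aplnr was at 0.44 CPM or less. Apln and its receptor were counted in the same vascular-like cells: of 552 cells thinned to 3000 UMIs, 114 held Apln, 91 held Aplnr and 25 held both, where independent draws would give 19.0.

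Cxcl12, the chemokine, was a gene of cardiomyocyte-like cells. Its level in that class was 66.9 and 69.6 CPM in Gata4_KO libraries, against 82.0 and 103 CPM in Gata4_het libraries. Both Gata4_KO libraries were below both Gata4_het libraries, and the log2 difference was -0.34 (SE 0.17, unadjusted p = 0.0874, adjusted p = 1.0). Thinned cardiomyocyte-like cells with a Cxcl12 UMI made up 12.3% and 13.0% of Gata4_KO cells, against 18.3% and 18.3% of Gata4_het cells. Thinned macrophage-like cells with one made up 1.25% and 0% in Gata4_KO libraries, against 0.51% and 0.49% in Gata4_het libraries. A cluster led by Ttn, Actn2 and Myh7, sarcomere genes, held 49.1% of all Cxcl12 UMIs. There Cxcl12 had 106 and 103 CPM in Gata4_KO libraries, against 123 and 122 CPM in Gata4_het libraries. A cluster led by Mb, Actc1 and Myoz2 had 40.9 and 45.4 CPM in Gata4_KO libraries, against 72.9 and 53.4 CPM in Gata4_het libraries. Of the 7 cardiomyocyte clusters with cells in all 4 libraries, 5 were below in both Gata4_KO libraries, and 2 were not. These clusters come from the same 4 libraries, so they are not separate observations of the groups, and the count is a description. A cluster led by Myh6, Sln and Cacna2d2 had 44.5 and 79.5 CPM of Cxcl12 in Gata4_KO libraries, from 84 and 30 cells, against 40.4 and 12.8 CPM in Gata4_het libraries, from 39 and 89 cells, and was above in both. A cluster led by Ttn, Nppb and Nppa had 93.6 and 128 CPM in Gata4_KO libraries, against 83.5 and 99.7 CPM in Gata4_het libraries, which overlapped. The clusters were not equally filled: the Ttn-led cluster held 764 and 350 cells in Gata4_KO libraries, against 431 and 1090 in Gata4_het libraries, and 2010 of the 2021 cells of a Myl2-led cluster came from Gata4_het 1. Without Gata4_het 1 the log2 difference of the class was -0.50 (SE 0.26), and without Gata4_het 2 it was -0.16 (SE 0.26). In vascular-like cells Cxcl12 had 11.6 and 16.3 CPM in Gata4_KO libraries, against 15.6 and 12.6 CPM in Gata4_het libraries (log2 difference -0.02, SE 0.29, adjusted p = 1.0). Cardiomyocyte RNA carried into these cells, at the rate of their cardiomyocyte markers, would give 2.36 and 0.626 CPM in Gata4_KO libraries, against 6.80 and 4.496 CPM in Gata4_het libraries.

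**Figure D2:**
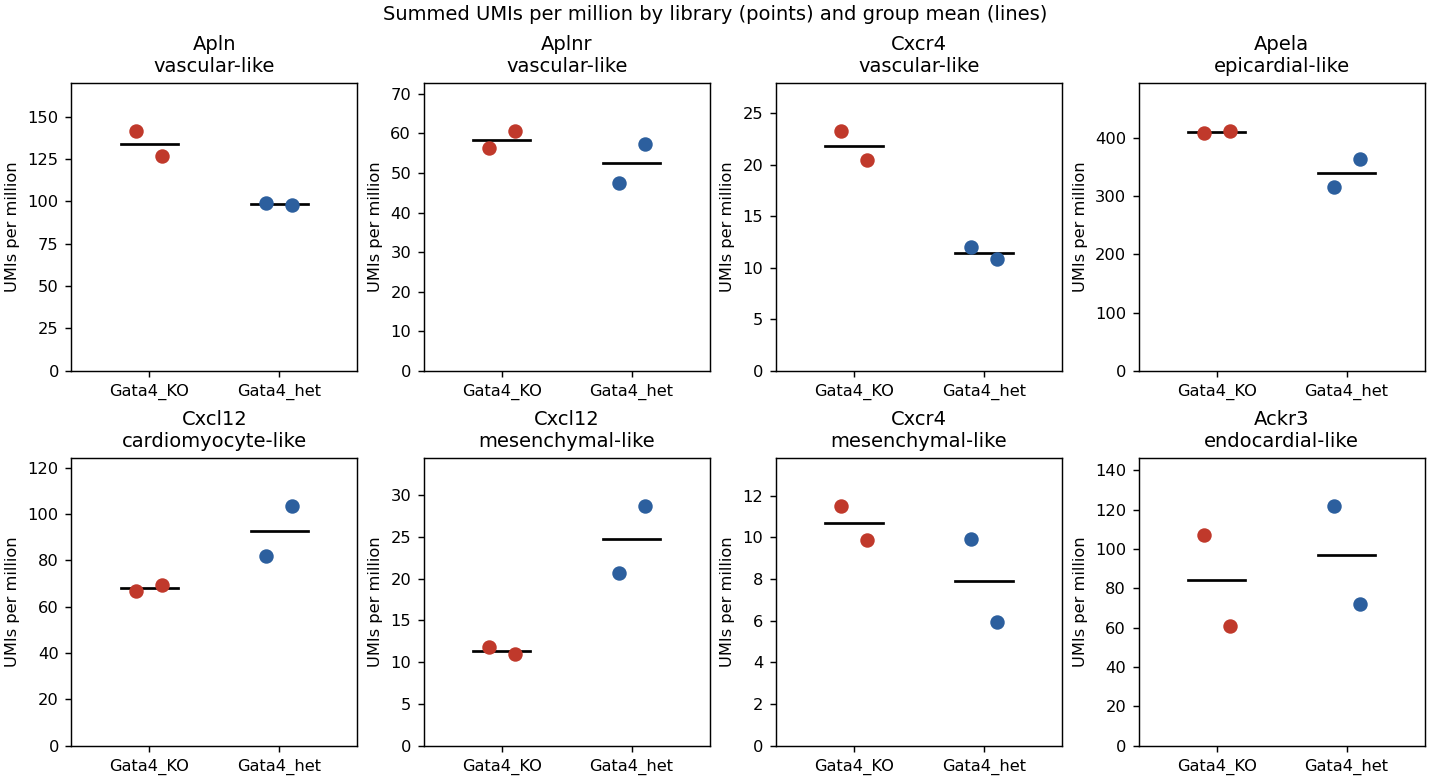
Levels (CPM of the class total) in each library, with Gata4_KO points left of Gata4_het points and a line at each group's mean. Apln and Cxcr4 in vascular-like cells were above in both Gata4_KO libraries, and Cxcl12 in cardiomyocyte-like and mesenchymal-like cells below in both. The share of all genes with groups apart in this way is not given.

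Cxcl12 was also lower in both Gata4_KO libraries in mesenchymal-like cells, the loose cells of the cushions and of the tissue under the epicardium. It had 11.77 and 11.001 CPM in Gata4_KO libraries, against 20.7 and 28.7 CPM in Gata4_het libraries, from 267, 338, 257 and 1022 UMIs. The groups did not overlap, and the log2 difference was -1.14 (SE 0.20, unadjusted p = 0.000503, adjusted p = 1.0 over 16882 genes, edgeR), which did not pass the threshold. Without a filter on low counts the adjusted p was 7.49e-06, with DESeq2 it was 0.0494, and over all alternatives run it lay between 7.49e-06 and 1.0. Leaving out Gata4_het 1 gave -1.38 (SE 0.24, adjusted p = 1.4e-05), and leaving out Gata4_het 2 gave -0.84 (SE 0.25, adjusted p = 0.728). Few cells carried these UMIs. The 1% of cells with most Cxcl12 held 48.3% and 63.0% of the UMIs in Gata4_KO libraries, against 48.3% and 61.8% in Gata4_het libraries. With those cells taken out, 6.13 and 4.10 CPM were left in Gata4_KO libraries, against 10.9 and 11.1 CPM in Gata4_het libraries. The share of cells with a UMI was 8.04% and 8.70% in Gata4_KO libraries, against 10.1% and 9.30% in Gata4_het libraries, at median depths of 13257 and 25594.5 UMIs against 7481 and 16264 UMIs. Cardiomyocyte markers took 0.232% and 0.099% of mesenchymal UMIs in Gata4_KO libraries, against 0.387% and 0.118% in Gata4_het libraries. At that rate carried RNA would account for 2.07 and 0.86 CPM in Gata4_KO libraries, against 4.27 and 1.51 CPM in Gata4_het libraries, and its part in the difference was not tested.

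Most mesenchymal Cxcl12 came from a cluster led by Matn4, Sfrp2 and Col9a1, with 19.7 and 25.2 CPM in Gata4_KO libraries, against 37.0 and 54.7 CPM in Gata4_het libraries. Cells of this cluster with at least 5 Cxcl12 UMIs numbered 11 of 700 and 10 of 505 in Gata4_KO libraries, against 10 of 391 and 32 of 1003 in Gata4_het libraries. Summed over the libraries, these 63 cells held 4192 CPM of Eln (elastin), 1693 CPM of Fbln5 (a fibulin of elastic fibres) and 1837 CPM of Acta2 (smooth muscle actin). Cells of the cluster with no Cxcl12 UMI held 207, 52.2 and 286 CPM of the same genes. The cardiomyocyte gene Ttn was higher in the same cells too, with 862 and 85.0 CPM in Gata4_KO libraries and 2960 and 109 CPM in Gata4_het libraries. Cells with no Cxcl12 UMI held 89.5 and 36.7 CPM of Ttn in Gata4_KO libraries, and 112 and 56.1 CPM in Gata4_het libraries, and the part of cardiomyocyte RNA in these cells was not tested. At the finer clustering, the cluster parted into a side led by Sfrp2 and Crabp1 and a side led by Dpt and Col9a1. Cxcl12 in the Sfrp2 side had 37.0 and 46.0 CPM in Gata4_KO libraries, against 83.2 and 101 CPM in Gata4_het libraries. Cxcr4 in that side stood at 1.92 and 0.85 CPM in Gata4_KO libraries, against 3.44 and 0.65 CPM in Gata4_het libraries. In the Dpt side the order of ligand and receptor was the other way, with Cxcl12 at 4.13 and 2.91 CPM in Gata4_KO libraries against 7.94 and 2.77 CPM in Gata4_het libraries. Cxcr4 there had 31.8 and 29.5 CPM in Gata4_KO libraries, against 21.9 and 13.5 CPM in Gata4_het libraries. Ackr3 was present on both sides. These sides were defined on the same cells, so the contrast between them is a description. Of 5193 thinned mesenchymal-like cells, 184 held Cxcl12, 112 held Cxcr4 and 0 held both, where independent draws would give 3.99. That allows a share of up to 0.0578% of thinned cells with a UMI of both, and says nothing of the share that expresses both.

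**Figure D3:**
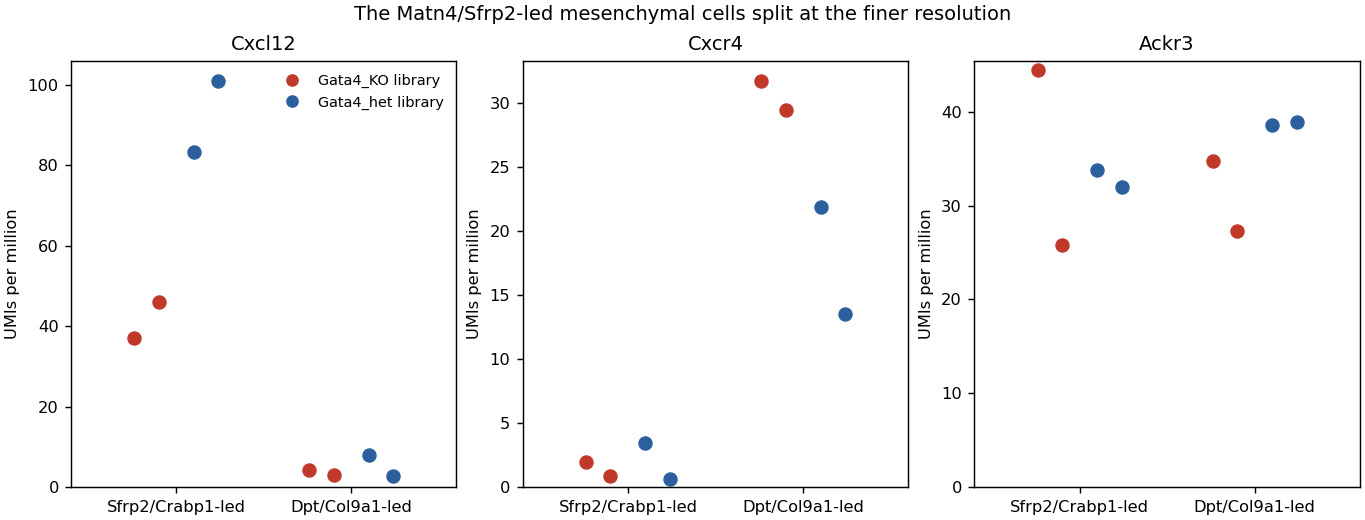
Levels (CPM) of Cxcl12, Cxcr4 and Ackr3 in the 2 sides of the Matn4/Sfrp2-led mesenchymal cluster at the finer clustering, 1 point per library, Gata4_KO left of Gata4_het. Cxcl12 was at 37.0 CPM or more in the Sfrp2 side and 7.94 CPM or less in the Dpt side, and Cxcr4 was placed the other way.

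Cxcr4, the signalling receptor, averaged 16.6 CPM over the 4 libraries in vascular-like cells, more than in any other whole class, though single mesenchymal clusters reached as high. In vascular-like cells it had 23.3 and 20.4 CPM in Gata4_KO libraries, against 11.97 and 10.85 CPM in Gata4_het libraries, from 96, 64, 30 and 67 UMIs. The groups did not overlap, and the log2 difference was 0.92 (SE 0.24, unadjusted p = 0.00344, adjusted p = 0.808, edgeR). Thinned cells with a Cxcr4 UMI made up 8.70% and 8.11% of Gata4_KO cells, against 3.40% and 2.24% of Gata4_het cells, which are 12, 6, 7 and 3 cells. In thinned macrophage-like cells the share was 0.312% and 0% in Gata4_KO libraries, against 0% and 0.49% in Gata4_het libraries. Without Gata4_het 1 the log2 difference was 0.97 (SE 0.34), and without Gata4_het 2 it was 0.86 (SE 0.40). The 8 vascular markers took 0.290% and 0.238% of the UMIs of these cells in Gata4_KO libraries, against 0.171% and 0.214% in Gata4_het libraries, and the 15 cardiomyocyte markers took 0.264% and 0.072% in Gata4_KO libraries, against 0.615% and 0.351% in Gata4_het libraries. The Gata4_KO libraries were both above both Gata4_het libraries for the vascular markers and both below them for the cardiomyocyte markers, and their part in the differences was not tested. Cxcr4 in endocardial-like cells was at 2.57 and 1.29 CPM in Gata4_KO libraries, against 2.17 and 2.998 CPM in Gata4_het libraries. In Wnt9b-led cells it averaged 4.02 CPM in Gata4_KO libraries, against 1.77 CPM in Gata4_het libraries, and was above in both. So it was in pooled endothelial-like cells, which include the vascular-like cells, at 6.12 against 4.04 CPM. In Tcf15-led cells the groups overlapped, at 1.24 against 1.26 CPM. The difference between the vascular-like and the endocardial-like log2 differences was 1.47 (SE 0.41, unadjusted p = 0.00270, adjusted p = 0.125, edgeR with library as a block), in a test that called 0.972% of 13380 genes. Without the filter on low counts the adjusted p of this Cxcr4 difference was 0.0217, and over all alternatives it lay between 0.0217 and 0.557. Mesenchymal-like cells had 11.5 and 9.89 CPM in Gata4_KO libraries, against 9.90 and 5.95 CPM in Gata4_het libraries (log2 difference 0.46, SE 0.24, adjusted p = 1.0), and a mesenchymal cluster led by Tubb3, Dpt and Sall3 had 20.3 and 20.4 CPM in Gata4_KO libraries, against 23.0 and 11.7 CPM in Gata4_het libraries. Both ranges overlapped that of the vascular-like cells. Aplnr and Cxcr4 were counted together in 0 of 552 thinned vascular-like cells, where independent draws would give 5.17. A count of 0 allows a share of up to 0.543% of cells with a UMI of both at that depth, and it does not limit how many cells express both. Apln and Cxcr4 were counted together in 3 cells, where independent draws would give 5.91.

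Ackr3, the clearing receptor, averaged 20 CPM or more in 6 of the 9 classes, where Apln, Apela, Aplnr and Cxcl12 did so in 1 class each and Cxcr4 in 0. Endocardial-like cells had 107 and 61.0 CPM in Gata4_KO libraries, against 122 and 71.8 CPM in Gata4_het libraries (log2 difference -0.18, SE 0.28, adjusted p = 1.0). Wnt9b-led cells had 62.2 and 30.4 CPM in Gata4_KO libraries, against 40.1 and 23.3 CPM in Gata4_het libraries (log2 difference 0.54, SE 0.35, adjusted p = 1.0). Epicardial-like cells had 51.5 and 30.8 CPM in Gata4_KO libraries, against 47.5 and 34.8 CPM in Gata4_het libraries. Replicate 1 lay above replicate 2 in both groups in these classes, and the groups overlapped. In vascular-like cells Ackr3 was low, at 15.7 and 6.06 CPM in Gata4_KO libraries, against 16.4 and 7.61 CPM in Gata4_het libraries. The Tubb3-led mesenchymal cluster, which also held Cxcr4, had 38.1 and 19.0 CPM of Ackr3 in Gata4_KO libraries, against 34.7 and 23.3 CPM in Gata4_het libraries. Erythroid-like cells had 37.7 and 21.8 CPM in Gata4_KO libraries, against 45.4 and 31.0 CPM in Gata4_het libraries. Their log2 difference was -1.29 with TMM scaling (SE 0.37, unadjusted p = 0.00961, adjusted p = 0.233, edgeR, against 0.0247 with DESeq2), and the adjusted p differed widely between alternatives. With class totals alone the log2 difference was -0.36. The median log2 difference of all genes was 0.027 with TMM scaling and 0.93 with class totals alone. Globin RNA took 63.7% and 59.5% of erythroid UMIs in Gata4_KO libraries, against 76.6% and 73.8% in Gata4_het libraries, and its part in the difference was not tested.

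In the edgeR fit with the filter on low counts and no replicate block, none of the 6 genes passed the adjusted threshold of 0.05 in any class tested, and other settings called some of them. In vascular-like cells 5 were tested and 0 called, beside 0% of all genes called, and 2 of the 5 were higher at an unadjusted p under 0.05, beside 2.07% of 11492 genes. In mesenchymal-like cells 1 of 5 was higher and 1 lower at that level, beside 0.486% and 0.498% of genes. The higher one was Apln, at 1.41 and 1.204 CPM in Gata4_KO libraries, against 0.56 and 0.73 CPM in Gata4_het libraries (log2 difference 0.95, SE 0.40, adjusted p = 1.0). In erythroid-like cells 2 of 3 were lower, beside 10.9% of genes. In endocardial-like cells 0 of 5 was called, beside 0.021% of genes. At an unadjusted p under 0.05, 0 members passed in the endocardial-like (4.68% of all genes did), Wnt9b-led (4.23%), pooled endothelial-like (3.84%), cardiomyocyte-like (1.68%), epicardial-like (1.73%), macrophage-like (1.82%) and Tcf15-led cells (1.98%). For the difference of effects 1 of 5 passed upward, beside 5.67%, and it was Cxcr4.

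**Figure D4:**
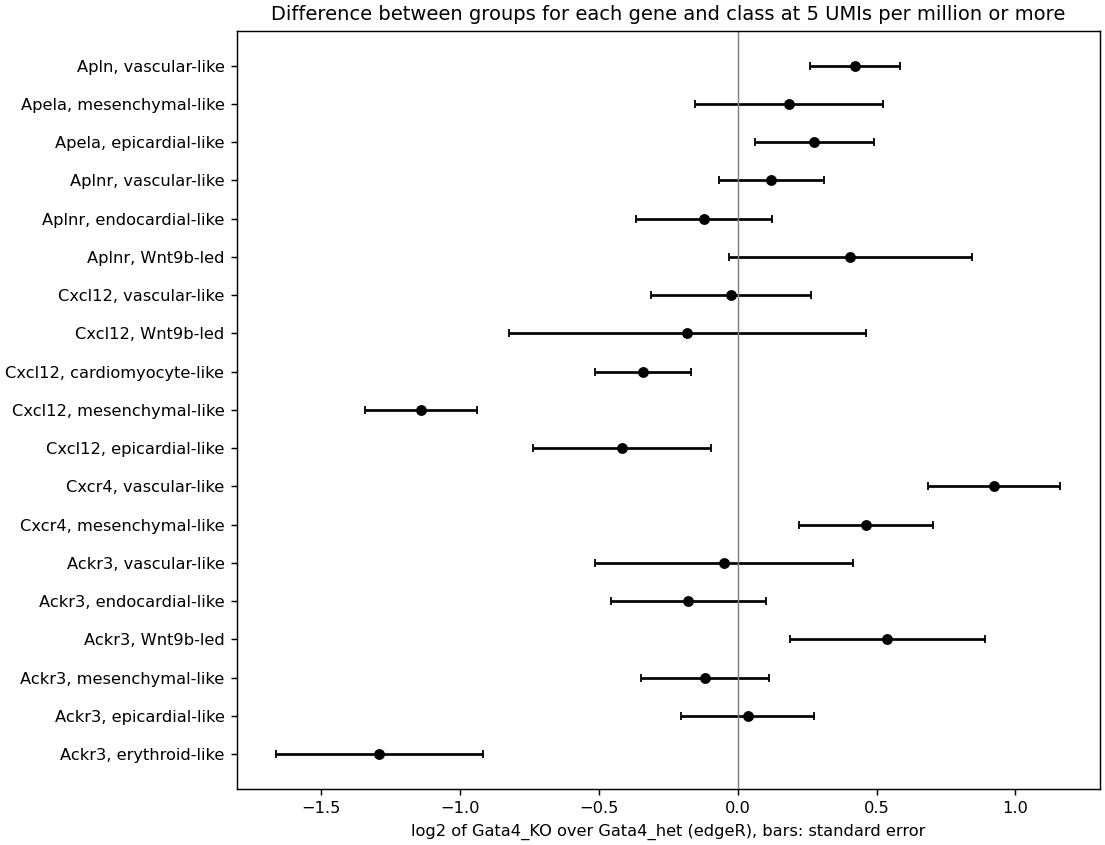
log2 of Gata4_KO over Gata4_het for each gene in each class where it averaged 5 CPM or more, with bars for the standard error (edgeR). The Tcf15-led and the pooled endothelial-like cells are not drawn. Cxcr4 in vascular-like cells (0.92) and Cxcl12 in mesenchymal-like cells (-1.14) lie more than 3 standard errors from 0, as does Ackr3 in erythroid-like cells (-1.29), and none of them passed the adjusted threshold in that fit.

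Genes with the most similar pattern were found by Pearson r of log2(CPM + 1) over 36 sums, 9 classes in 4 libraries, among 10834 genes. The classes share library and depth, and r is given as a description. Apln was most like Esm1 (r = 0.946), Kcne3 (0.931), Meox2 (0.919), Gpihbp1 (0.919) and Btnl9 (0.901). Apela was most like Aldh1a2 (0.981), the enzyme that makes retinoic acid, then Myrf, Efemp1, Aldh1a1 and Egfl6. Aplnr was most like the Notch ligand Dll4 (0.979), then Robo4, Ushbp1, Clec1a and Pcdh12. Cxcl12 was most like Tox3 (0.928), then Rbpms2, Gm43185, Akap6 and Khdrbs3. Cxcr4 was most like Col15a1 (0.883), then Cd109, Fam78b, Piezo2 and Sparcl1. Ackr3 was most like Zfpm1 (0.870), then Amot, Ube2h, Cd55 and Vopp1.

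A list of 28 genes of coronary vessel growth was set beside these, in vascular-like cells. It was chosen with earlier results of these data known, so its counts are a description. Tek, Kdr and Flt1 of the list are also endothelial markers used to name clusters, and Esm1 is a leading gene of the vascular-like cluster. Of the 28 tested, 24 had a positive log2 difference, with a median of 0.41, beside 49.8% of all genes positive. In the same cells the vascular markers took 0.290% and 0.238% of UMIs in Gata4_KO libraries, against 0.171% and 0.214% in Gata4_het libraries, and the part of these markers in the list's values was not tested. The cardiomyocyte markers took 0.264% and 0.072% in Gata4_KO libraries, against 0.615% and 0.351% in Gata4_het libraries, whose part was not tested either. None passed the adjusted threshold. At an unadjusted p under 0.05, 9 were higher and 2 lower, beside 2.07% and 2.17% of genes. Hey1, a Notch target, had 33.8 and 43.8 TMM-scaled CPM in Gata4_KO libraries, against 17.1 and 16.2 in Gata4_het libraries (log2 difference 1.22, SE 0.23, adjusted p = 0.626). Unc5b, a netrin receptor of vessels, had 122 and 111 in Gata4_KO libraries, against 59.6 and 66.0 in Gata4_het libraries (log2 difference 0.89, SE 0.17, adjusted p = 0.626). Gja5, the arterial connexin, had 8.38 and 19.0 in Gata4_KO libraries, against 3.18 and 3.96 in Gata4_het libraries (log2 difference 1.86, SE 0.45, adjusted p = 0.808). Nr2f2, a factor of veins, had 98.0 and 122 in Gata4_KO libraries, against 167 and 153 in Gata4_het libraries (log2 difference -0.54, SE 0.18, adjusted p = 1.0). Vegfb and Hey2 were also below 0, at -0.82 and -0.60. Of the list, 17 of 27 genes tested were positive in endocardial-like cells (median 0.07), beside 50.8% of all genes. In Wnt9b-led cells 20 of 27 were positive (median 0.33), beside 49.1%. In pooled endothelial-like cells 22 of 28 were positive (median 0.27), beside 50.6%. In Tcf15-led cells 6 of 18 were positive (median -0.20), beside 51.0%. In cardiomyocyte-like cells 4 of the 28 had a positive log2 difference and the median was -0.55, beside 50.1% of all genes positive. Endothelial markers there took 0.007% and 0.003% of UMIs in Gata4_KO libraries, against 0.016% and 0.004% in Gata4_het libraries. In erythroid-like cells 2 of 22 were positive (median -1.19), beside 51.6%, and 10 were lower at an unadjusted p under 0.05 (edgeR), beside 10.9% of genes. Positive genes numbered 13 of 27 in mesenchymal-like (median -0.01), 13 of 21 in epicardial-like (0.03) and 7 of 11 in macrophage-like cells (0.23).

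Of 29 partners of the axes, 24 were tested in vascular-like cells, and this list too was chosen with earlier results known. Positive log2 differences numbered 15, with a median of 0.11, beside 49.8% of all genes positive. At an unadjusted p under 0.05, 2 were higher and 0 lower, beside 2.07% and 2.17% of genes. The higher ones were Ramp3, a co-receptor of adrenomedullin, at 1.40 (SE 0.33, adjusted p = 0.745), and Adm, adrenomedullin itself, a peptide also cleared by Ackr3, at 0.42 (SE 0.17, adjusted p = 1.0). Dpp4, the peptidase that trims Cxcl12, had 93.3 and 71.7 TMM-scaled CPM in Gata4_KO endocardial-like cells, against 174 and 137 in Gata4_het ones (log2 difference -0.91, SE 0.20, adjusted p = 0.450). Grk3, a kinase that switches off receptors of this kind, had 23.9 and 17.1 in Gata4_KO endocardial-like cells, against 12.9 and 9.95 in Gata4_het ones (log2 difference 0.87, SE 0.24, adjusted p = 0.682). Unc5b in endocardial-like cells had 26.0 and 23.5 in Gata4_KO libraries, against 7.65 and 7.66 in Gata4_het libraries (log2 difference 1.69, SE 0.19, adjusted p = 0.0647).

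**Figure D5:**
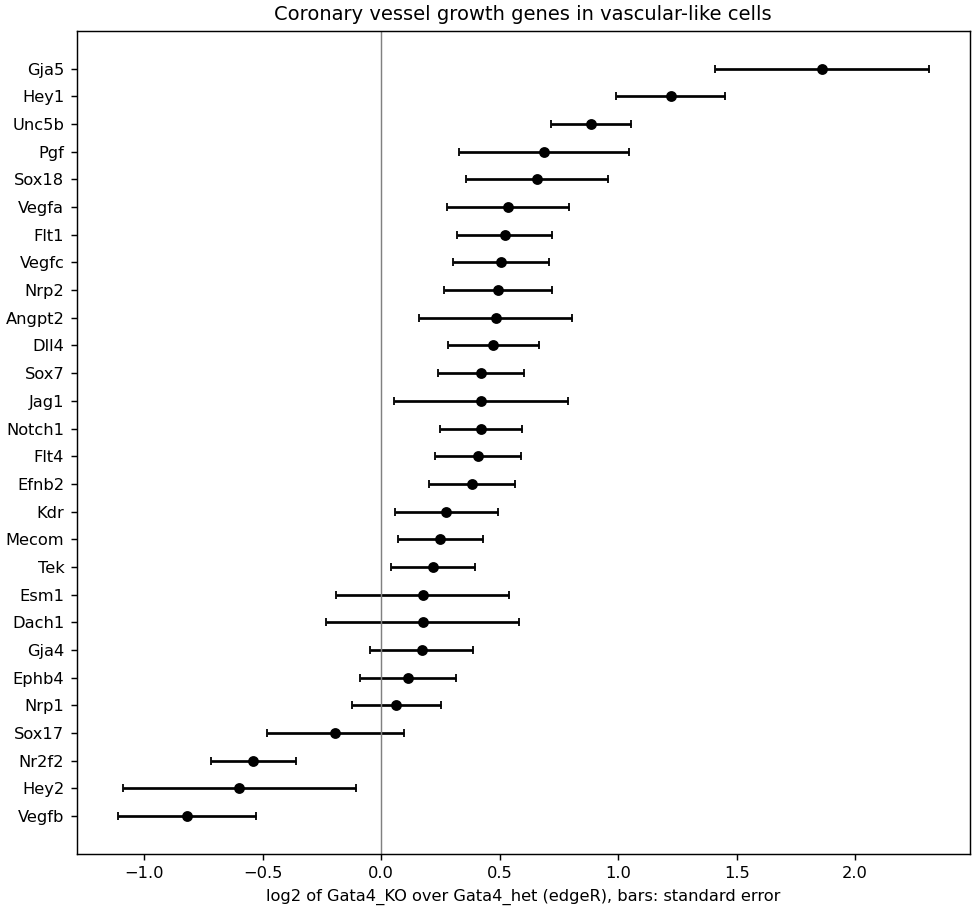
log2 of Gata4_KO over Gata4_het of the 28 coronary vessel growth genes in vascular-like cells, with bars for the standard error. 24 of the 28 lie above 0, from Gja5 at 1.86 to Vegfb at -0.82.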

How the data were processed

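Single-cell RNA of 4 mouse embryonic ventricle libraries was used. The files as deposited hold whole-number UMI counts, not normalized, for each gene in each barcode. Their headers name cellranger 6.0.1. The submitters' processing notes list mm10, Cell Ranger and Seurat without a role. The kit is named in conflicting ways.

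Of the 55405 features, 54349 matched GENCODE M21. Barcodes with under 500 genes or at least 20% mitochondrial UMIs were left out. Scrublet in scanpy 1.11.5 scored doublets, and cells above 0.3 were removed, a limit chosen after its automatic thresholds were seen to fail. The 2000 variable genes, without the 6 members, gave 30 principal components, 20 neighbours and Leiden clusters at resolution 1 (igraph 0.11.9). Clusters were named from fixed markers by a mean log2 fold of at least 1, and 21 of 43 were left unnamed. Rules on cardiomyocyte markers (under 1% of UMIs for other classes, at least 5% for cardiomyocytes) were kept from earlier work on these data.

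UMI counts were summed per library and class. The filterByExpr step (minimum count 10, minimum total 15) chose the genes tested with edgeR 4.0.16 in R 4.3.3, TMM-scaled, quasi-likelihood, Gata4_KO against Gata4_het, 2 libraries each, with Benjamini-Hochberg adjustment over all genes of a class at 0.05. DESeq2 1.42.0 served as an alternative. Levels are CPM over class totals without TMM unless said. Co-detection and some shares used cells thinned to 3000 UMIs, with cells below that depth left out. Tests were checked on simulated counts. Wilson 95% intervals and floors of 3 counts cover counting error only.

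The 6 genes and both lists were chosen with earlier results of these data known. Named were the 6 genes in each class, up to 3 list genes per direction with the lowest unadjusted p at 5 CPM or more in endothelial classes, the 5 most alike genes of each member, and Gata4. Replicate numbers have no stated meaning. Megakaryocyte-like cells were not tested, with 20 cells in 1 library.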

Additional observations from a re-analysis of the deposited data

How the results depend on the processing

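Counts of genes called at an adjusted p under 0.05 differed widely between alternatives. Without a filter on low counts they came to 272 in endothelial-like, 181 in endocardial-like, 153 in vascular-like, 264 in Wnt9b-led, 111 in cardiomyocyte-like, 37 in mesenchymal-like, 20 in epicardial-like, 97 in macrophage-like, 849 in erythroid-like and 6 in Tcf15-led cells, and 445 for the difference of effects. The edgeR fit with the filter gave 3 in endocardial-like cells, 130 for the difference of effects and 0 in every other class. With DESeq2 the counts were 40, 40, 4, 31, 2, 3, 7 and 428 in endothelial-like, endocardial-like, vascular-like, Wnt9b-led, mesenchymal-like, epicardial-like, macrophage-like and erythroid-like cells. With class totals alone they were 0 in endocardial-like and 4752 in erythroid-like cells, where the median log2 difference of all genes was then 0.93. Leaving out 1 library at a time gave 3 to 226 in endothelial-like, 93 to 129 in endocardial-like, 78 to 177 in vascular-like, 0 to 294 in Wnt9b-led, 0 to 128 in cardiomyocyte-like, 0 to 51 in mesenchymal-like, 15 to 91 in epicardial-like, 7 to 106 in macrophage-like, 6 to 3372 in erythroid-like and 3 to 57 in Tcf15-led cells, and 45 to 255 for the difference of effects. A group left with 1 library is assumed there to vary like the other group.

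Of the 6 genes, 1 was called in mesenchymal-like cells without the filter and with DESeq2 (Cxcl12), and 0 to 1 with a library left out, the 1 being Cxcl12 without Gata4_het 1. In erythroid-like cells 1 was called without the filter and with DESeq2 (Ackr3), and 0 to 2 with a library left out. For the difference of effects 1 was called without the filter (Cxcr4). Size factors, the gene minimum of 1000, kept doublets and eligible members called 0.

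The numbers 1 and 2 are shared by the groups, and their deviations from the group means correlated at 0.322 to 0.635 over genes, but with 2 pairs and no label this does not show pairing. With the replicate block, counts were 454, 613, 242, 50, 238, 24, 47, 10, 2823 and 14 in endothelial-like, endocardial-like, vascular-like, Wnt9b-led, cardiomyocyte-like, mesenchymal-like, epicardial-like, macrophage-like, erythroid-like and Tcf15-led cells. Under this block 2 members were called in vascular-like cells (Apln, adjusted p = 0.0467, and Cxcr4, adjusted p = 0.0291, edgeR, where every other alternative gave 0.622 or more for Apln and 0.161 or more for Cxcr4), 1 in cardiomyocyte-like cells (Ackr3), 1 in mesenchymal-like cells (Cxcl12) and 2 in erythroid-like cells (Cxcl12 and Ackr3). Ackr3 in epicardial-like cells turned to -0.034.

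Small log2 differences turned in sign; the cause was not tested. With doublets kept, Cxcl12 and Ackr3 in vascular-like cells were 0.060 and 6.56e-05, and Cxcl12 in Wnt9b-led cells 0.18. At resolution 2, Cxcl12 in Wnt9b-led cells was 0.57 and Ackr3 in mesenchymal-like cells 0.021. With 1 library left out, ranges crossed 0 for Aplnr in endocardial-like (-0.43 to 0.13), vascular-like (-0.0085 to 0.30) and Wnt9b-led cells (-0.058 to 0.99), for Cxcl12 in vascular-like (-0.33 to 0.28) and Wnt9b-led cells (-0.91 to 1.09), and for Apela in mesenchymal-like cells (-0.41 to 0.60). For Ackr3 they did so in endocardial-like (-0.57 to 0.15), vascular-like (-0.83 to 0.49), Wnt9b-led (-0.012 to 0.94), mesenchymal-like (-0.51 to 0.20), epicardial-like (-0.33 to 0.31) and Tcf15-led cells (-1.28 to 0.13), and for Nr2f2 in endocardial-like cells (-0.35 to 0.026). The difference of effects ranged from -0.014 to 0.73 for Apln, -0.18 to 0.65 for Aplnr, -0.31 to 1.25 for Cxcl12 and -0.27 to 0.30 for Ackr3.

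Mean shares of cells with a UMI, thinned to 3000 and to 2000 UMIs, were 20.7% and 16.9% for Apln and 17.6% and 9.63% for Aplnr in vascular-like cells, 62.1% and 44.9% for Apela in epicardial-like cells, 15.5% and 10.9% for Cxcl12 in cardiomyocyte-like cells, 5.61% and 4.89% for Cxcr4 in vascular-like cells, and 23.3% and 15.1% for Ackr3 in endocardial-like cells. A mean over cells, in place of summed UMIs, gave 61.7 for Aplnr and 23.0 for Cxcr4 in vascular-like cells and 62.8 for Cxcl12 in cardiomyocyte-like cells, in CPM. In vascular-like cells Cxcr4 rested on 30 to 96 UMIs per library and Ackr3 on 19 to 65.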

Other observations

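Members were also counted in clusters without a name. Cxcr4 stood at 10.7 and 11.3 CPM in Gata4_KO libraries, against 9.3 and 10.1 CPM in Gata4_het libraries, in a cluster led by the neutrophil genes S100a9, S100a8 and Camp. Ackr3 in the larger erythroid-like cluster, led by the embryonic globins Hbb-bh1, Hba-x and Hbb-y, had 54.3 and 40.9 CPM in Gata4_KO libraries, against 47.5 and 36.3 CPM in Gata4_het libraries. In the smaller one, led by Hemgn, Car1 and Pklr, it had 20.6 and 3.48 CPM in Gata4_KO libraries, against 25.2 and 4.86 CPM in Gata4_het libraries. The smaller cluster held 739 and 309 cells in Gata4_KO libraries, against 23 and 141 in Gata4_het libraries. The erythroid-like difference of Ackr3 stood beside this difference in how many cells the smaller cluster holds, whose part in it was not tested.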
